A study of Drosophila melanogaster with 24 samples.

Results

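The genes described here are 9 fly genes for cell surface adhesion and recognition proteins: the teneurins Ten-m and Ten-a, the immunoglobulin-domain genes dpr19, rst and Nrg, the fasciclins Fas1, Fas2 and Fas3, and the cadherin gene shg. Members were all array probe sets whose annotation names 1 gene, that gene being on this list. Of the 9 genes, 7 were named by 11 such probe sets, of 11981 genes named this way on the array. Fas2 and Fas3 were not analysed here. The list was chosen by measured differences in earlier results of the same data: Ten-m, dpr19 and Fas1 had stood out in S2/S2-Dl against S2/S2, and Ten-m and dpr19 in other comparisons of a mix with Dl cells against one without. Their values in those comparisons are therefore a description, with no p. Other comparisons of these genes reuse samples of those comparisons, so their p-values are not independent of the choice.

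Teneurins are large transmembrane proteins that bind teneurins and other receptors on neighbouring cells, and in the fly they are known for matching partner neurons at synapses. The dpr proteins carry immunoglobulin domains and bind the DIP proteins, again mostly between neurons. Fas1 is held in the membrane by a lipid anchor and mediates adhesion between like cells, shg encodes the E-cadherin of adherens junctions, rst is an irre cell recognition protein of the eye and muscle, and Nrg is the fly's L1-type protein of axons and septate junctions.

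RNA was measured on 24 single-channel Affymetrix arrays after a pair of cell populations had been mixed for 45 minutes, with 2 independent samples pooled for each replicate. The populations were S2 cells, a hemocyte-like fly line, and S2 lines expressing Delta (Dl), Delta without its intracellular domain (DlDI), NFull or NDCterm. NFull and NDCterm are taken to be forms of the Delta receptor Notch, a reading that the labels do not state. The 8 mixes, with both populations separated by a stroke, were S2/S2 (3 samples in the fit), S2/S2-DlDI (2), S2/S2-Dl (3), S2/S2-NDCterm (2), S2-NDCterm/S2-Dl (2), S2-NFull/S2 (1), S2-NFull/S2-DlDI (1, the mean of 2 arrays) and S2-NFull/S2-Dl (1). Every mix except S2/S2 held at least 1 expressing line, and the labels give neither promoter nor number of clones for any line. RNA came from both populations together, so more cells that carry a transcript and more transcript per cell cannot be told apart.

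The source field names epidermal tissue of late embryos, whereas titles and design name S2 cells. In S2/S2, 8 of 11 plasmatocyte markers had a signal above 100, against 1 of 10 for epidermis, 1 of 8 for neurons, 4 of 7 for glia and 0 of 3 for muscle. Delta signal was 11069.6 to 12968.3 in the 6 samples titled with Dl cells, and at most 41.29 in the 9 others of the fit, DlDI mixes included. The labels do not give the part of Delta that its probe set reads, so the low value in DlDI mixes checks nothing there. On 5 occasions 2 arrays bore the same title, and 4 of these pairs, 8 arrays, were left out of the fit because they differed by more than the rule on such pairs allowed. Of these, 3 arrays had Delta signals against their titles, 2 of them titled S2-NFull/S2-DlDI with 12295.2 and 11031.4 and 1 titled S2-NDCterm/S2-Dl with 13.94. Nothing in the labels says that replicates came from separate cultures, so the p-values measure only the spread between these samples.

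Ten-m, whose product is also known as Odz, had the widest range of mix means among the members, 3.52 on the log2(signal + 32) scale used for every difference here. Its signal was 188.5, 125.8 and 141.9 in the 3 samples of S2/S2 and 112.8 and 98.2 in S2/S2-DlDI. In S2/S2-Dl it was 928.8, 1018.8 and 815.4. S2/S2-NDCterm gave 215.6 and 220 units, and S2-NDCterm/S2-Dl gave 1139.0 and 1000.6. The lone samples with NFull cells stood at 523.5 in S2-NFull/S2, 492 in S2-NFull/S2-DlDI and 1546.2 in S2-NFull/S2-Dl.

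The 6 samples with Dl cells, at 815.4 to 1546.2, therefore lay above all 9 others, at 98.2 to 523.5, and within each of these sets the NFull samples were the highest. From top to bottom the mix means ran S2-NFull/S2-Dl, S2-NDCterm/S2-Dl (1069.8 ± 97.9, SD, n = 2), S2/S2-Dl (921 ± 102, SD, n = 3), S2-NFull/S2, S2-NFull/S2-DlDI, S2/S2-NDCterm (217.8 ± 3.13, SD, n = 2), S2/S2 (152 ± 32.6, SD, n = 3) and S2/S2-DlDI (105 ± 10.3, SD, n = 2). Among neighbours in this order, S2-NDCterm/S2-Dl versus S2/S2-Dl (log2 difference 0.21 ± 0.15 SE, limma adjusted p = 0.855), S2-NFull/S2-DlDI against S2-NFull/S2 (-0.08 ± 0.23, adjusted p = 1), S2/S2-NDCterm against S2/S2 (0.45 ± 0.15, adjusted p = 0.34) and S2/S2-DlDI against S2/S2 (-0.41 ± 0.15, adjusted p = 0.574) did not pass the test at 0.05.

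**Figure D1:**
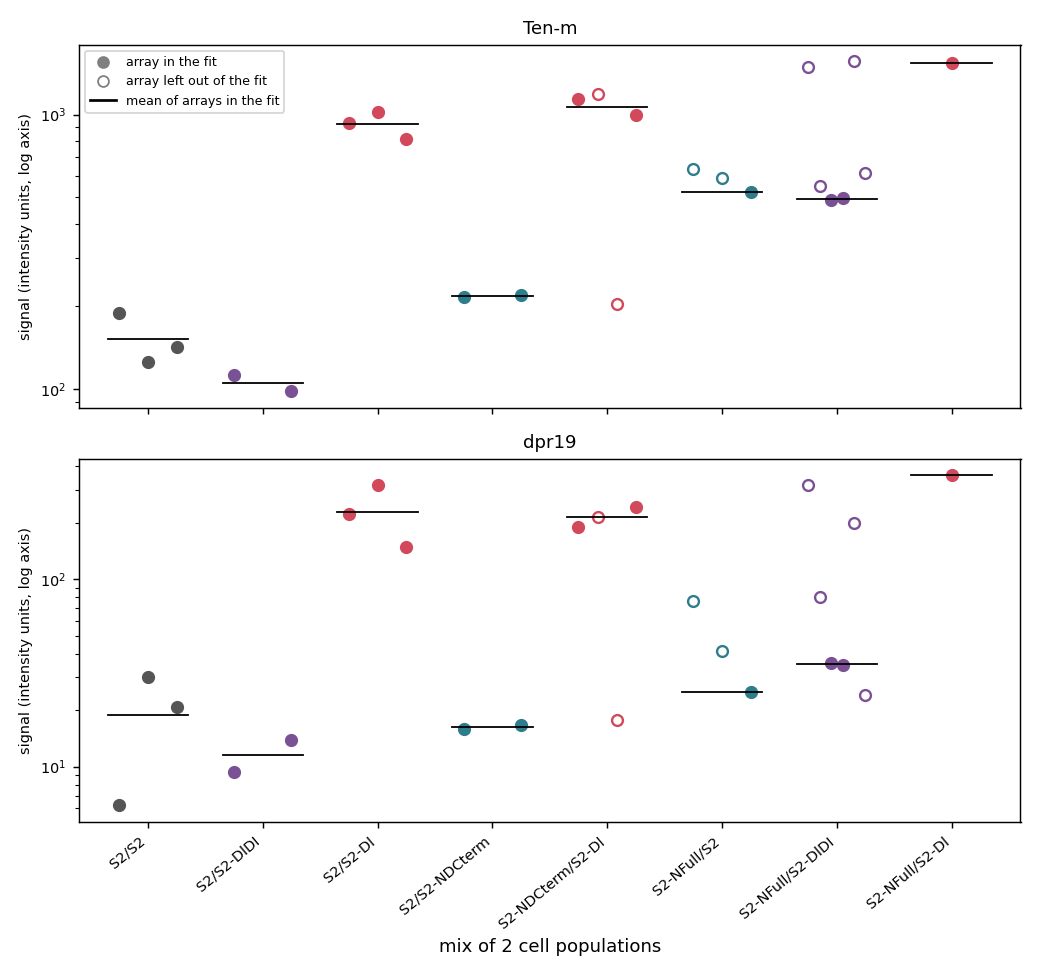
Signal of Ten-m (top) and dpr19 (bottom) in intensity units on a log axis, for each of the 24 arrays by the mix in its title; filled points were in the fit, open points were left out, and each line is the mean of the filled points. Ten-m in the fit runs from 815.4 to 1546.2 in the 3 mixes with Dl cells and is at least 486.9 in every array titled with NFull cells; dpr19 is at 147.6 to 358.5 in the samples with Dl cells and at most 35.3 in the others of the fit.

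NFull cells without Dl cells came with more Ten-m. The 523.5 of S2-NFull/S2 was above each of the 3 S2/S2 samples, and limma gave a log2 difference of 1.61 ± 0.19 SE (95% interval 1.20 to 2.01, adjusted p = 0.00164). Both left-out arrays titled S2-NFull/S2 replicate 1 had similar Ten-m signals, 634.1 and 589.8. Of the 11 member probe sets, limma called only Ten-m, as higher, beside 0.181% of all 18769 probe sets called. The log2 difference was above 0 for 4 of the 11. At an unadjusted limma p below 0.05 were 3 of them, beside 6.84% of all probe sets. The same 3 S2/S2 samples were the low side of a comparison that chose Ten-m, so the p is not independent of that choice. The call rests on 1 sample whose spread is borrowed from the other mixes. It was kept in 11 of 13 alternatives, with adjusted p from 0.000281 to 0.07, and lost when the fit held the compared mixes alone (0.0679) and with array 2 of each shared title (0.07).

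Ten-m was also higher with NFull cells when both mixes held DlDI cells, in a comparison added after these values had been seen. Ten-m signal was 486.9 and 497.0 on the 2 averaged arrays of S2-NFull/S2-DlDI, against 112.8 and 98.2 in S2/S2-DlDI, with no overlap. The log2 difference was 1.93 ± 0.20 SE, given as a description with no p, from 1 sample with NFull cells. limma called 1 of the 11 members, Ten-m, beside 0.208% of all probe sets, and nothing is read from that count. The call was lost when the fit held the compared mixes alone.

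NDCterm cells gave no such call. In S2/S2-NDCterm against S2/S2, limma called 0 of the 11 member probe sets, beside 0.165% of all probe sets called. At an unadjusted p below 0.05 were 2 members, beside 9.47% of all probe sets. Ten-m was 217.8 against 152, so both NDCterm samples lay above all 3 controls, yet the 0.45 ± 0.15 did not pass the test. The difference between NFull and NDCterm lines was not tested directly, and each comparison against S2/S2 uses the same 3 S2/S2 samples.

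In the comparisons that chose it, Ten-m differed in S2/S2-Dl from S2/S2 by 2.38 ± 0.13 SE, in S2/S2-Dl from S2/S2-DlDI by 2.79 ± 0.15, in S2-NDCterm/S2-Dl from S2/S2-NDCterm by 2.14 ± 0.16, in S2-NFull/S2-Dl from S2-NFull/S2 by 1.51 ± 0.23 and in S2-NFull/S2-Dl from S2-NFull/S2-DlDI by 1.59 ± 0.23. The first 2 share the S2/S2-Dl samples, and the last 2 share the lone S2-NFull/S2-Dl sample. In signal units Ten-m was 768.9 higher with Dl cells beside S2 cells, 852 higher beside NDCterm cells and 1022.7 higher beside NFull cells. On the log2 scale the order was the other way round, since the NFull mix without Dl cells started higher. The difference of Dl effects beside NFull minus beside S2 cells was -0.87 ± 0.27 SE. It is built from comparisons that chose Ten-m, so it is given as a description with no p. Of the marker lists, only the 7 glial markers had separate summed signals, 1670.6 to 1991.4 with Dl cells against 2038.2 to 2934.9 without. The share of all probe sets separated in this way was not counted, and the part of these markers in the differences was not tested. Plasmatocyte sums overlapped, 4350.5 to 5275.7 with Dl cells and 3446.7 to 5835.0 without, as did those of epidermal and muscle markers. For the 8 neuronal markers the sums overlapped, 123.9 to 249.3 with Dl cells and 130 to 293.5 without, and apart from elav, at 206 in S2/S2, the highest mix mean of any of them was 20.12.

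Among arrays left out of the fit, Ten-m was not uniform within a title. The 2 arrays of S2-NDCterm/S2-Dl replicate 2 read 1185.7 and 204.8 for Ten-m, with Delta at 11381.6 and 13.9. The arrays of S2-NFull/S2-DlDI replicate 1 read 1497.0 and 549.3 for Ten-m, with Delta at 12295.2 and 156. Those of replicate 3 read 1567.2 and 614.1, with Delta at 11031.4 and 1.67. In each of these 3 pairs the array with the higher Delta signal had the higher Ten-m signal, and no array was moved to another mix.

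dpr19, a member of the family of DIP-binding proteins, was low outside the mixes with Dl cells. Its signal was 6.25, 29.9 and 20.7 in S2/S2, 9.33 and 13.9 in S2/S2-DlDI, and 15.9 and 16.7 in S2/S2-NDCterm. S2/S2-Dl gave 221, 317 and 147.6, S2-NDCterm/S2-Dl gave 188.7 and 241, and S2-NFull/S2-Dl gave 358.5. S2-NFull/S2 stood at 24.9 and S2-NFull/S2-DlDI at 35.3. The 6 samples with Dl cells, at 147.6 to 358.5, did not overlap the 9 others, at 6.25 to 35.3, and the low side lies near or under the offset of 32, so the log2 differences understate the ratio.

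With Dl cells the log2 difference of dpr19 was 2.33 ± 0.24 SE beside S2 cells, 2.35 ± 0.29 beside NDCterm cells and 2.78 ± 0.41 beside NFull cells. Against the DlDI mixes it was 2.53 ± 0.27 beside S2 cells and 2.54 ± 0.41 beside NFull cells. With the offset at 8 the first of these became 3.18, and with the largest offset tried it became 1.25. dpr19 gave no call where NFull cells came without Dl cells: the log2 difference of S2-NFull/S2 from S2/S2 was 0.19 ± 0.34 (limma adjusted p = 0.891, 95% interval -0.54 to 0.91). The left-out arrays of that title read 76.5 and 41.3 for dpr19, above the 6.25 to 29.9 of the 7 arrays titled S2/S2, S2/S2-DlDI and S2/S2-NDCterm, and with array 1 of each shared title the difference was 0.65. S2-NFull/S2-DlDI read 35.3 against 11.6 in S2/S2-DlDI, without overlap, a difference of 0.63 ± 0.36 (adjusted p = 1). The other lines without Dl cells gave differences of -0.20 in S2/S2-DlDI and -0.05 in S2/S2-NDCterm against S2/S2. Left-out arrays ranged from 17.7 to 316, and in the 3 pairs named above the array with the higher Delta signal again had the higher dpr19 signal, 215 against 17.7, 316.4 against 80.2 and 199.1 against 24.02.

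The second teneurin, Ten-a, was read by 3 probe sets that disagreed. 1623755_at had a mean signal of 71.8, while 1630294_at and 1637879_at never exceeded 15.2 and 18.1 on any of the 24 arrays and did not pass the filter on low signal. The labels do not say which transcripts each of them reads. For 1623755_at, S2/S2 gave 42.6, 27.2 and 29.4, S2/S2-DlDI gave 74.9 and 49.9, and S2/S2-NDCterm gave 47.96 and 51.1. S2/S2-Dl gave 128.1, 119.7 and 64.8, S2-NDCterm/S2-Dl gave 123.7 and 135, and S2-NFull/S2-Dl gave 108. S2-NFull/S2 was lowest at 22.3, with left-out arrays of that title at 23.5 and 18.2, and S2-NFull/S2-DlDI stood at 52.7.

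Samples with Dl cells, at 64.8 to 135, overlapped the others, at 22.3 to 74.9, because of S2/S2-Dl replicate 3 and S2/S2-DlDI replicate 2. Ten-a differed in S2/S2-Dl from S2/S2 by 1.04 ± 0.20 SE, given as a description. In S2-NDCterm/S2-Dl versus S2/S2-NDCterm the difference was 0.98 ± 0.25 (limma adjusted p = 0.157, 95% interval 0.45 to 1.52), and both samples of the first lay above both of the second. It was 1.37 ± 0.35 in S2-NFull/S2-Dl versus S2-NFull/S2 (adjusted p = 0.188). Neither passed at 0.05, although fitting the compared mixes alone gave 0.0453 for the first (range over its alternatives 0.0453 to 0.917) and averaging each shared title gave 0.0317 for the second (0.0317 to 0.343). S2/S2-DlDI lay between its neighbours, 0.53 above S2/S2 (adjusted p = 0.615) and 0.51 below S2/S2-Dl (adjusted p = 0.579, 95% interval 0.02 to 1.00).

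**Figure D2:**
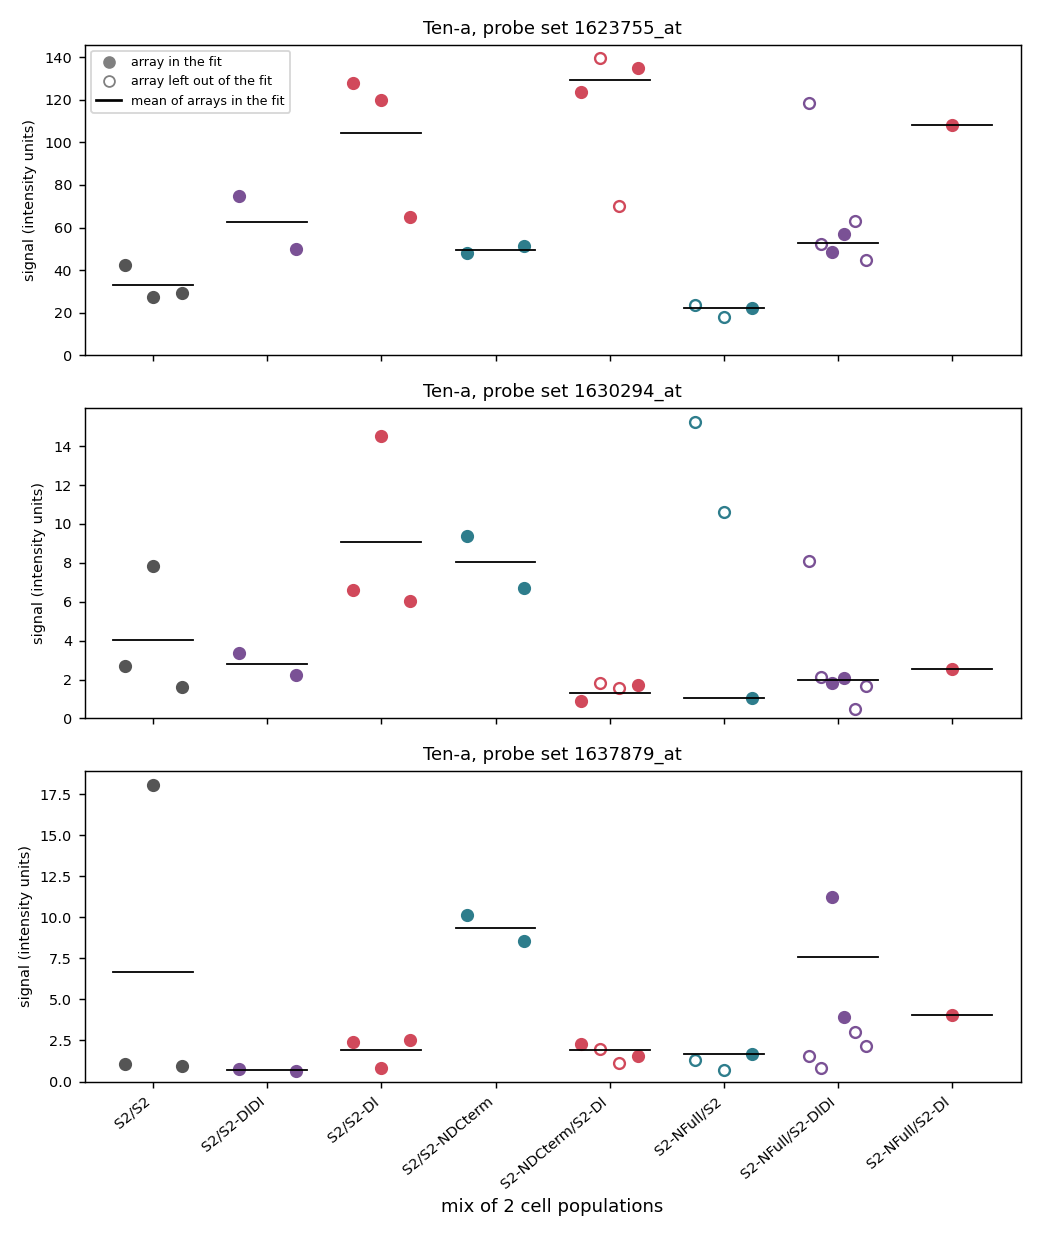
Signal of the 3 Ten-a probe sets in intensity units for each of the 24 arrays by the mix in its title; filled points were in the fit, open points were left out, and lines are means of the filled points. Only the top panel, 1623755_at, rises above 32, with mix means of 104 to 129.3 where Dl cells were present and 22.3 to 62.4 in the other mixes; the lower panels stay at or under 18.1 with no shared order.

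In mixes with NFull cells, Ten-a did not share the call of Ten-m. The log2 difference of S2-NFull/S2 from S2/S2 was -0.25 ± 0.29 for 1623755_at (limma adjusted p = 0.842, 95% interval -0.88 to 0.37), against 1.61 ± 0.19 for Ten-m. S2-NFull/S2-DlDI against S2/S2-DlDI gave -0.15 ± 0.31 for Ten-a (adjusted p = 1) and 1.93 for Ten-m. All 3 arrays titled S2-NFull/S2 read 18.2 to 23.5 for Ten-a, below the 7 arrays titled S2/S2, S2/S2-DlDI and S2/S2-NDCterm at 27.2 to 74.9, while for Ten-m the same 3 read 523.5 to 634.1 against 98.2 to 220 units. The difference between the 2 genes was not tested.

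Fas1 was lowest in the mix without any expressing line. The 3 samples of S2/S2 read 752, 555.1 and 927.8 (745 ± 187, SD, n = 3), and all 21 arrays of the other mixes read 1095.9 to 1774.2. Within those, the values were 1192.0 and 1216.6 in S2/S2-DlDI, 1107.7, 1157.1 and 1180.9 in S2/S2-Dl, and 1191.6 and 1095.9 in S2/S2-NDCterm. S2-NDCterm/S2-Dl read 1480.8 and 1452.5. S2-NFull/S2 read 1119.7, S2-NFull/S2-DlDI 1718.4 and S2-NFull/S2-Dl 1680.5. So the groups of arrays did not overlap S2/S2, with or without the arrays left out of the fit, and the higher signal was also read in mixes without Dl cells.

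The tests of these differences share the S2/S2 samples, whose Fas1 values spread widely. The log2 difference from S2/S2 was 0.63 ± 0.14 SE for S2/S2-Dl, as a description. The same S2/S2 samples were the low side of the comparison that chose Fas1, so the p-values that follow are not independent of that choice. The difference was 0.70 ± 0.16 for S2/S2-DlDI (limma adjusted p = 0.293, 95% interval 0.36 to 1.04), 0.63 ± 0.16 for S2/S2-NDCterm (adjusted p = 0.198) and 0.60 ± 0.20 for S2-NFull/S2 (adjusted p = 0.559). None passed at 0.05. Without S2/S2 replicate 3, its highest sample, S2/S2-DlDI (0.87, limma adjusted p = 0.0365) and S2/S2-NDCterm (0.79, adjusted p = 0.0385) passed. Each was the only call among 15 alternatives, and leaving out the highest control raises the difference by itself. S2/S2 replicate 2, its lowest for Fas1, was also the array with the highest median over all probe sets, 20.9 against 9.82 to 14.2 on the other 23 arrays. Without that replicate the differences were 0.51 and 0.44, and neither passed at 0.05.

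**Figure D3:**
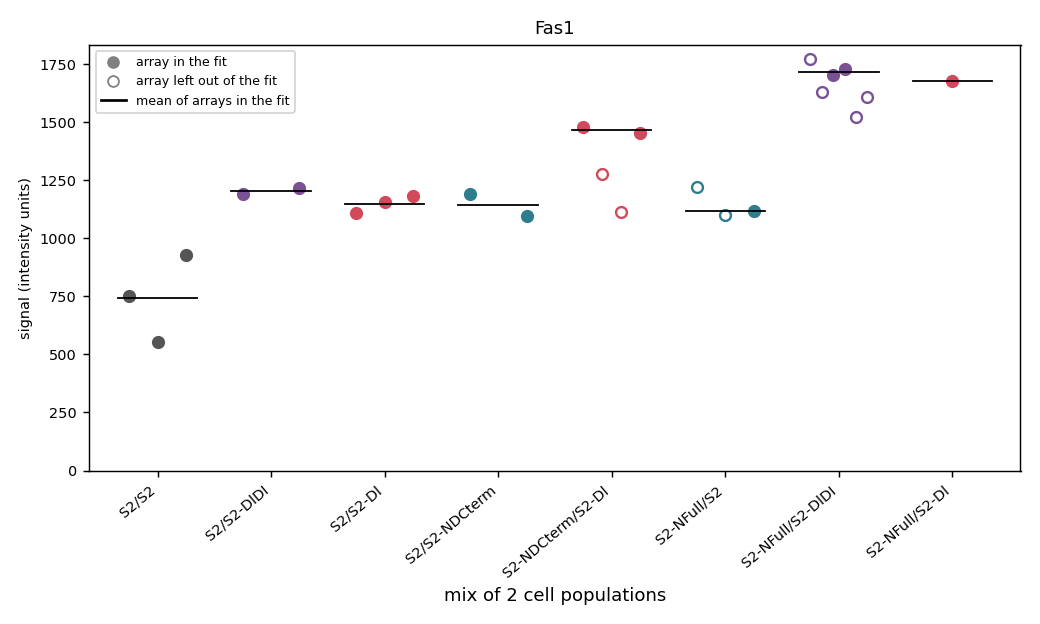
Signal of Fas1 in intensity units from 0 for each of the 24 arrays by the mix in its title; filled points were in the fit, open points were left out, and lines are means of the filled points. The 3 S2/S2 arrays lie at 555.1 to 927.8 and every other array at 1095.9 to 1774.2, with the 7 arrays titled S2-NFull/S2-DlDI or S2-NFull/S2-Dl between 1521.2 and 1774.2.

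Fas1 read highest where NFull cells met a line with a form of Delta. The 7 arrays with those titles, a set chosen after their values were seen, read 1521.2 to 1774.2 with a median of 1680.5, above the 14 arrays of the remaining mixes other than S2/S2, at 1095.9 to 1480.8. The 4 of those 7 that stayed out of the fit had Delta signals from 1.67 to 12295.2. Against S2-NFull/S2 the log2 difference was 0.60 ± 0.25 SE for S2-NFull/S2-DlDI (limma adjusted p = 1) and 0.57 ± 0.25 for S2-NFull/S2-Dl (adjusted p = 0.481), both from lone samples and neither past the threshold. The NFull mixes with Dl and with DlDI cells differed by -0.03 ± 0.25 (95% interval -0.56 to 0.50), and S2/S2-Dl and S2/S2-DlDI by -0.07 ± 0.16.

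shg, the E-cadherin gene, stayed under 32 on all 24 arrays, at 1.23 to 27.1. Its highest values were 27.1 in S2-NFull/S2-Dl and 24.8 in both S2-NDCterm/S2-Dl samples, while S2/S2-Dl read 8.22, 6.92 and 6.36, no more than the 1.46 to 10.4 of S2/S2. Against S2/S2-Dl the log2 difference was 0.54 ± 0.15 SE for S2-NDCterm/S2-Dl (limma adjusted p = 0.353, 95% interval 0.21 to 0.87) and 0.59 ± 0.19 for S2-NFull/S2-Dl (adjusted p = 0.282). S2-NFull/S2-Dl versus S2-NFull/S2-DlDI gave 0.80 ± 0.24 (adjusted p = 0.372). None passed at 0.05, and the S2-NFull/S2-DlDI value of 2.04 lay under its 4 left-out arrays, at 10.4 to 17.6.

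rst, which binds the proteins of hbs and sns in eye and muscle, read 0.307 to 10.5 over the 24 arrays. Its mean signal was 2.09, and no difference in it passed the test. The files used here hold no detection call, so whether such low signals stand above background was not tested.

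Nrg was read by 3 probe sets, and the 2 stronger ones varied within S2/S2 as widely as across the mixes. 1636146_at read 84.6, 57.9 and 16.2 in S2/S2 and 14.2 to 56.1 in all other arrays. 1637463_a_at read 57.95, 44.6 and 13.9 in S2/S2 and 0.816 to 34.9 in the others. 1626001_at stayed at 0.759 to 13.6. The largest Nrg difference between mixes, in 1637463_a_at for S2-NFull/S2 against S2/S2, was -0.91 ± 0.40 SE (limma adjusted p = 0.718), with 4.21 in the sample of the fit and 21.4 and 23.6 on the left-out arrays of that title. S2/S2 replicate 3 was low for both probe sets and replicate 1 high, and no Nrg difference passed the test.

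**Figure D4:**
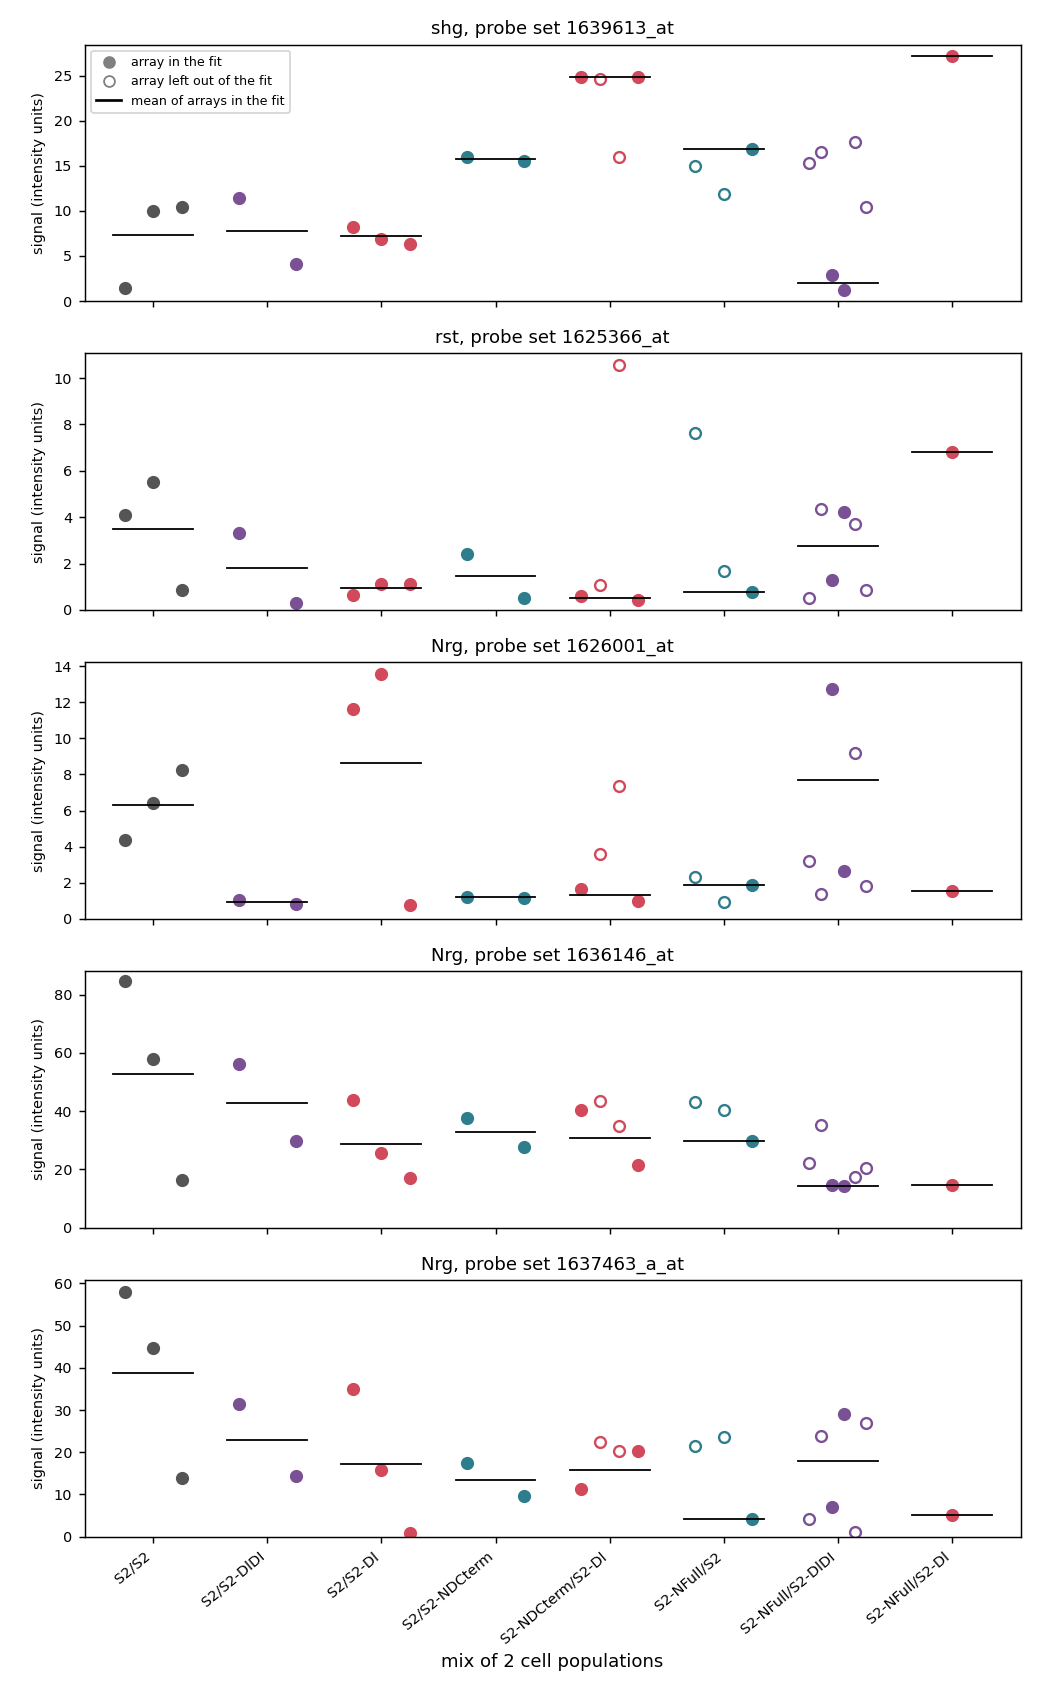
Signal of shg, rst and the 3 Nrg probe sets in intensity units from 0 for each of the 24 arrays by the mix in its title; filled points were in the fit, open points were left out, and lines are means of the filled points. shg, rst and 1626001_at stay under 32 on every array, and the 2 stronger Nrg probe sets spread from 16.2 to 84.6 and from 13.9 to 57.95 within S2/S2 alone.

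Counted over the 11 member probe sets, limma called 4 higher and 0 lower in S2/S2-Dl against S2/S2 (Ten-m, dpr19, Ten-a 1623755_at and Fas1), where 1.31% of all probe sets were called. It called 2, Ten-m and dpr19, in S2/S2-Dl against S2/S2-DlDI (0.639%), in S2-NDCterm/S2-Dl versus S2/S2-NDCterm (0.49%), in S2-NFull/S2-Dl versus S2-NFull/S2 (0.293%) and in S2-NFull/S2-Dl versus S2-NFull/S2-DlDI (0.213%). These comparisons chose the members, and nothing is read from their counts. The median log2 difference over the 11 was 0.07 in the first, against -0.047 over all probe sets. Over all probe sets, calls went from 245 to 130 without S2/S2-Dl replicate 1, 93 without S2/S2-Dl replicate 2 and 207 without S2/S2 replicate 2. In these fits the count over the 11 was 2. In S2-NDCterm/S2-Dl versus S2/S2-NDCterm it was 1, Ten-m, without S2-NDCterm/S2-Dl replicate 3.

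The remaining comparisons, other than S2-NFull/S2 against S2/S2 and S2-NFull/S2-DlDI against S2/S2-DlDI given above, gave 0 of 11. S2/S2-DlDI against S2/S2 had 0.0746% of all probe sets called by limma, and 3 members had an unadjusted p below 0.05, as had 7.79% of all probe sets. S2-NFull/S2-DlDI against S2-NFull/S2 had 0.0213% called, and 2 members and 3.5% of all probe sets had an unadjusted p below 0.05. For S2-NDCterm/S2-Dl versus S2/S2-Dl these were 0.107%, 4 members and 7.17%, and for S2-NFull/S2-Dl versus S2/S2-Dl 0.357%, 4 members and 9.29%. In the last of these Ten-m was 1546.2 against 921, a difference of 0.73 ± 0.19 SE (limma adjusted p = 0.163, 95% interval 0.33 to 1.14).

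Whether the line beside the Dl cells altered their effect was asked by an interaction term. Each term subtracts the difference of S2/S2-Dl from S2/S2, which chose Ten-m, dpr19 and Fas1. The values and counts below are therefore not independent of that choice. Beside NDCterm minus beside S2 cells, limma called 0 of 11, with 0.0107% of all probe sets called, and 1 member and 3.46% of all probe sets had an unadjusted p below 0.05. The difference of Dl effects was -0.24 ± 0.21 SE for Ten-m (95% interval -0.70 to 0.21), 0.02 ± 0.38 for dpr19, -0.06 ± 0.32 for Ten-a 1623755_at and -0.28 ± 0.22 for Fas1. Beside NFull minus beside S2 cells it again called 0 of 11, with 0.0213% of all probe sets called, and 2 members and 5.21% of all probe sets had an unadjusted p below 0.05. This difference was -0.87 ± 0.27 for Ten-m, 0.45 ± 0.48 for dpr19, 0.33 ± 0.41 for Ten-a and -0.06 ± 0.28 for Fas1.

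**Figure D5:**
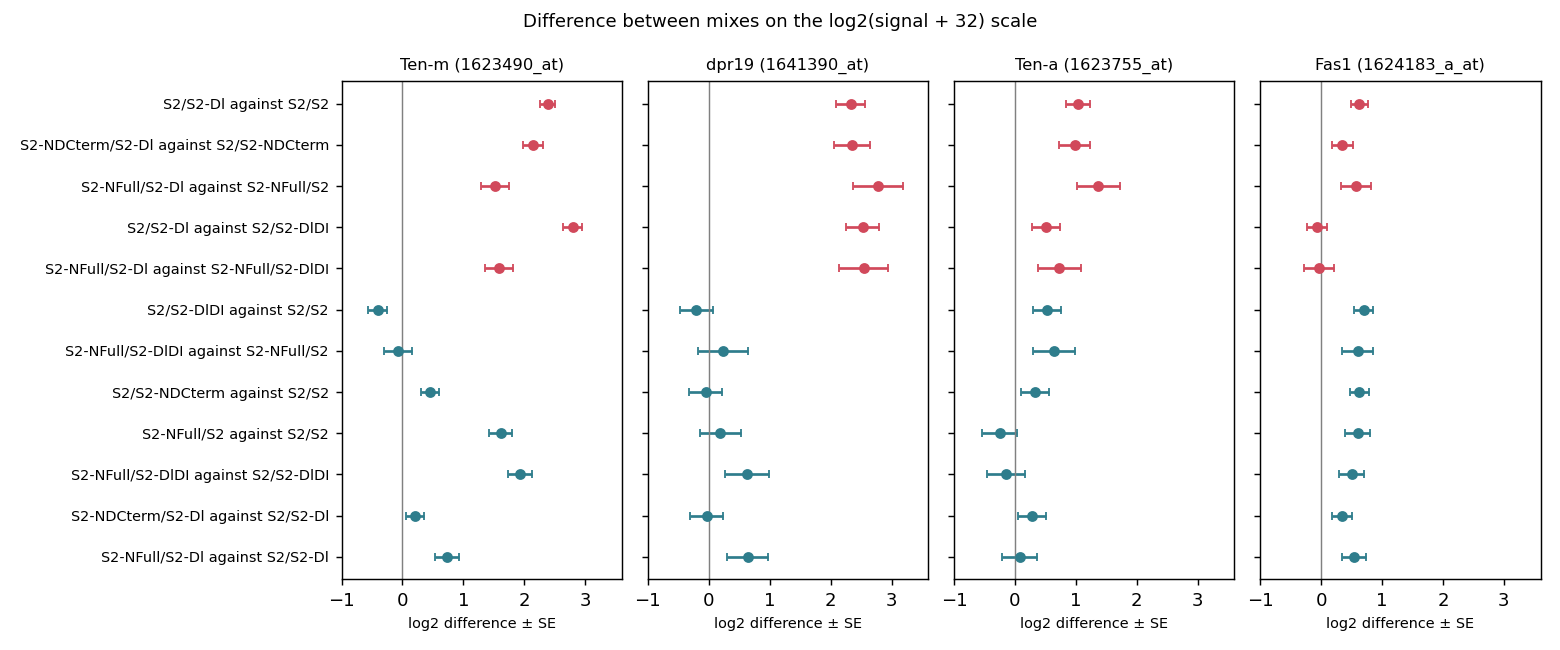
Log2 differences on the log2(signal + 32) scale, each point with its standard error from limma, for Ten-m, dpr19, Ten-a 1623755_at and Fas1 over 12 comparisons; red marks a mix with Dl cells against one without, teal every other comparison, and the vertical line is 0. Ten-m lies at 1.51 to 2.79 in the red comparisons and also at 1.61 and 1.93 where NFull mixes without Dl cells are compared with S2 mixes; Fas1 lies at 0.63, 0.70, 0.63 and 0.60 against S2/S2 and at -0.07 and -0.03 where Dl and DlDI mixes are compared.

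Genes that work with these members were counted from 8 lists holding 115 genes, of which 102 were measured. They were partners of teneurins (10 of 11 measured), the dpr and DIP family (29 of 31), fasciclin-domain and similar surface proteins (11 of 13), cadherins (12 of 16), adherens junction partners of shg (11 of 12), the irre cell recognition module (3 of 3), septate junction partners of Nrg (13 of 14) and other immunoglobulin surface proteins (13 of 15). In S2/S2-Dl against S2/S2, limma called 1 of the 102, beside 1.31% of all probe sets, and 8 had an unadjusted p below 0.05, beside 12.2% of all probe sets, so neither count stood above that background. In each of the other comparisons it called 0, with 2 to 11 at an unadjusted p below 0.05, where 3.46% to 9.52% of all probe sets had one. Medians over the 102 were -0.06 to 0.06 on the log2 scale. Among the 29 dpr and DIP genes beside dpr19, the differences in S2/S2-Dl against S2/S2 ran from -0.39 for dpr17 to 0.36 for dpr14, against 2.33 for dpr19, which was chosen for its difference. Of those 29 genes, 6 had a mean above the median over all probe sets, and with an offset of 32 the others could show little difference. Among teneurin partners they ran from -0.32 for Toll-2 to 0.08 for caps.

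The 1 called gene, no more than the background share gives, was Ank, encoding an ankyrin, which ties membrane proteins such as Nrg to the spectrin skeleton. Its signal was 529.7, 415.2 and 473.8 in S2/S2 and 754.1, 726.7 and 643.9 in S2/S2-Dl, without overlap. The log2 difference was 0.56 ± 0.11 SE (limma adjusted p = 0.0219). S2-NDCterm/S2-Dl read 759.8 and 757.6 and S2-NFull/S2-Dl 1033.4, while the mixes without Dl cells outside S2/S2 ran from 519.2 in S2/S2-NDCterm to 767.4 in S2-NFull/S2-DlDI, so those ranges met.

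The probe sets most like each member over the 15 samples were taken from 4787 with 1 gene and a mean signal of at least 100. These Pearson correlations are a description with no p, over samples that share their mix and array scaling. A gene can reach the signal floor through mixes with Dl cells alone, and Ten-m and dpr19 were chosen for their difference there. A high r between such genes is therefore no separate result. For Ten-m they were CG12493 (r = 0.976), ApepP (0.960), Rip11 (0.942) and Imp (0.940). CG12493 shared the middle position of S2-NFull/S2, at 662.8 against 152.4 in S2/S2 and 1948.4 in S2/S2-Dl. Imp, an RNA-binding protein gene, read 1 in S2/S2, 398.4 in S2/S2-Dl, 401.6 in S2-NFull/S2 and 1131.8 in S2-NFull/S2-Dl.

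For dpr19 the closest were PCNA (r = 0.974), the DNA polymerase clamp, CG6357 (0.972), ry (0.969), which encodes xanthine dehydrogenase, and CG12818 (0.965). PCNA read 1321.0 in S2/S2 and 1504.5 in S2-NFull/S2, against 3676.1 in S2/S2-Dl. CG6357 and ry reached the signal floor only through mixes with Dl cells, since their other mix means were at most 24.92 and 16.93. For Ten-a 1623755_at they were CG5004 (0.948), Hecw (0.916), Tango5 (0.912) and Trf2 (0.898). For Fas1 they were Karl (0.938), Slik (0.935), Eip63E (0.930) and Snx3 (0.927), and Slik, a kinase gene, had its lowest mix mean in S2/S2 at 405.5 and its highest in S2-NFull/S2-DlDI at 1074.9.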

How the data were processed

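Per the submitters' labels, 24 Affymetrix arrays measured total RNA of 8 cell mixes. The authors deposited 1 linear signal intensity per probe set. A name for the software was not given in the sources used here. Deposited arrays had a 2%-trimmed mean of 150.004 to 150.005, so the authors' scaling was kept. Of 18952 probe sets, 183 controls were left out and 18769 tested as log2(signal + 32), without a filter on low values. The platform annotation gave 1 gene to 13646 probe sets, several to 402 and none to 4721.

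Arrays sharing a title were averaged only when their log2 difference had a smaller SD than that of each of 9 pairs of separate replicates (0.213 to 0.488) and Delta differed by no more than in those pairs (0.483). Of 5 such titles, 1 passed (SD 0.126, Delta 0.288). In the 4 left out, the SD was 0.340 to 0.384, with Delta differing by 0.385 in S2-NFull/S2 replicate 1 and by 6.03 to 8.36 in the others. This left 15 samples from 16 arrays. One limma (3.58.1, R 4.3.3) model with 1 mean per mix and a mean trend had 7 residual and 6.26 prior degrees of freedom. The threshold for a call was 0.05 on the p-value adjusted by Benjamini-Hochberg over all probe sets of a comparison. Tables were made with Python 3.11.15 and pandas 2.3.3, and the fit was tested on simulated data. Low signal means a mean under 10.23, which 9385 probe sets reached, 7 of the 11 members among them.

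The members and the related gene lists were chosen with earlier results of these data known. Every member probe set is named, besides each called gene of the related lists (at most 6 per list) and the 4 genes most alike to members whose mix means span at least 1. For a related gene with several probe sets, the one with the highest mean was used. Residuals of S2/S2 and S2/S2-Dl samples with the same replicate number correlated at 0.666, 0.42 and 0.522. These numbers may pair the samples, but samples with unlike numbers were not correlated, so this was not tested. The description of 1 S2/S2 sample carries another replicate number than its title, and the title was followed. Those of S2/S2-DlDI correlated at 0.311 and 0.405 with S2/S2 and at 0.318 and 0.332 with S2/S2-Dl. Pairs with an NDCterm mix gave -0.0728 to 0.129. Other mixes shared at most 2 numbers, and the fit reported had no replicate block. The alternatives were other offsets (8 and 128), quantile normalization, a low-signal filter, no mean trend, other treatments of shared titles, a replicate block, the compared mixes only and leaving out samples.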

Additional observations from a re-analysis of the deposited data

Results flagged for a closer look

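Within the 4 or more arrays of 1 title, some single arrays stood farther from their nearest neighbour than Dixon's critical value at the 95% level allows. Chance alone gives about 1 such flag in 20 sets of arrays. They were an array titled S2-NFull/S2-DlDI at 118.5 for Ten-a 1623755_at, where the other 5 read 44.7 to 63.3, one at 8.10 for Ten-a 1630294_at and one at 11.2 for Ten-a 1637879_at. Among arrays titled S2-NDCterm/S2-Dl, 1 read 15.96 for shg, where the other 3 read 24.6 to 24.8, and 1 read 10.55 for rst. The last 2 values came from the same array, array 2 of replicate 2, with Delta at 13.94. The 118.5 and 8.10 shared array 1 of S2-NFull/S2-DlDI replicate 1, with Delta at 12295.2. All flagged signals but the 118.5 are under 32.

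Several left-out arrays, used in no comparison of the fit reported but in its alternatives on shared titles, held signals above those of S2/S2. Ten-m read 1185.7 on array 1 of S2-NDCterm/S2-Dl replicate 2, 634.1 and 589.8 on both arrays of S2-NFull/S2 replicate 1, 1497.0 and 549.3 on those of S2-NFull/S2-DlDI replicate 1, and 1567.2 and 614.1 on those of its replicate 3, against at most 188.5 in S2/S2. Ten-a 1623755_at read 139.8 on array 1 of S2-NDCterm/S2-Dl replicate 2 and 118.5 on array 1 of S2-NFull/S2-DlDI replicate 1, against at most 42.6. dpr19 read 215 on array 1 of S2-NDCterm/S2-Dl replicate 2, 316.4 on array 1 of S2-NFull/S2-DlDI replicate 1 and 199.1 on array 1 of its replicate 3, against at most 29.9.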

How the results depend on the processing

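No called difference changed sign, although some small differences that had not passed the test did, among them dpr19 and Fas1. Counts of member probe sets called stayed within 1.5 times the reported count in 173 results under an alternative and left that range in 18. The count in S2/S2-Dl against S2/S2, 4 in the fit reported, was 2 on the compared mixes only and 2 to 3 with 1 sample left out. Calls over all probe sets moved too, from 245 to 77 on the compared mixes only and to 93 to 335 with 1 sample left out. In S2/S2-DlDI and in S2/S2-NDCterm against S2/S2, leaving out 1 sample gave 0 to 1, the 1 being Fas1 without S2/S2 replicate 3. In S2-NFull/S2 against S2/S2 the count of 1 became 2 with array 1 of each shared title, 0 with array 2 and 0 on the compared mixes only. In S2-NFull/S2-DlDI against S2/S2-DlDI it became 2 with array 1 and 0 on the compared mixes only. In S2-NDCterm/S2-Dl versus S2/S2-NDCterm, 2 became 0 with array 2 and 1 to 2 with 1 sample left out. S2-NFull/S2-Dl versus S2-NFull/S2 went from 2 to 0 with array 1 and to 0 with array 2, and against S2-NFull/S2-DlDI to 0 with array 1, 0 with array 2 and 0 with shared titles averaged. The settings on shared titles took in arrays whose Delta signal went against their title. With array 1, and with titles averaged, S2-NFull/S2-DlDI included arrays with Delta at 12295.2 and 11031.4. With array 2, and with titles averaged, the NDCterm mix with Dl cells included an array with Delta at 13.94. Counts for these mixes under those settings therefore do not check the mix named in the title. The cause of the changes in count was not tested.

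With a replicate block, S2/S2-Dl against S2/S2 had 4 member calls as without it, though calls over all probe sets went from 245 to 540; the block changed no call of a member. Residuals of S2/S2-DlDI also correlated with those of the same number in S2/S2 and S2/S2-Dl, at 0.311 to 0.405. The other mixes, S2/S2-DlDI included, shared 2 numbers at most. A fit on the compared mixes only could not be made for comparisons of lone samples, and these could not be left out. For members with signals under 32, the low signal limits what a difference can show.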
